A study of Mus musculus with 16 samples.

Results

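The apolipoprotein genes Apoa1, Apoa2, Apoa4, Apoa5, Apob, Apoc1, Apoc2, Apoc3 and Apoe, together with Mttp, were followed in short-read RNA-Seq of 8 mouse tissues under fasting and fed conditions. These 10 genes were chosen by symbol, and all 10 were found among the 55385 genes of the count table. Male C57BL/6 mice without any genetic change, acquired at 12 weeks of age, were either fed or fasted for 24 h, with 3 mice in each group. The tissues were liver, kidney, spleen, lung, heart, muscle and both white and brown adipose, and each was pooled over the 3 mice of a group to give 1 library per treatment, 16 in all. Any test within a tissue thus compared 2 libraries rather than 2 conditions, and no value had a replicate error. The libraries held 14245178 to 36069968 counts, so that 3 counts corresponded to 0.0832 to 0.211 CPM (counts scaled by the library total). The markers of each tissue's own cells summed highest in the libraries of that tissue. The 12 hepatocyte markers summed to 110280 CPM in fed liver and 106408 CPM in fasting liver, and the 6 proximal tubule markers to 33261 and 28196 CPM in fed and fasting kidney. In pooled bulk tissue, fewer cells of a type and less RNA per cell cannot be told apart.

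Apolipoproteins are the protein part of the particles that carry triglyceride and cholesterol through plasma. Apolipoprotein B is the scaffold of very low density lipoprotein, which hepatocytes load with lipid through microsomal triglyceride transfer protein, the product of Mttp, whereas apolipoproteins A-I and A-II form high density lipoprotein. The small C apolipoproteins and apolipoprotein A-V set how fast lipoprotein lipase clears triglyceride, and apolipoprotein E is a ligand for hepatic uptake of remnants. Liver and intestine are the known main sources, and apolipoprotein E is also made by macrophages and adipose cells.

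Liver held the highest level of all 10 genes in both treatments. The 10 genes together took 4.58% of all counts in fed liver and 5.67% in fasting liver, against 0.0334% in both lung libraries and 0.0109% and 0.0099% in fed and fasting muscle. Between these extremes, the share was 0.304% and 0.368% in fed and fasting white adipose tissue, 0.136% and 0.166% in brown adipose tissue, 0.131% and 0.181% in kidney, 0.0746% and 0.104% in spleen and 0.0215% and 0.03% in heart. Apob ranked 2 among all genes by CPM in both liver libraries, and Apoe ranked 4 in fed and 3 in fasting liver. Compared per kilobase of gene length, the order in fed liver was Apoa2 (6427 CPM per kb), Apoe (5620), Apoa1 (4462), Apoc1 (3700), Apob (1440), Apoc3 (754.5), Apoa5 (292.5), Mttp (67.15), Apoa4 (27.9) and Apoc2 (2.03). In fasting liver, Apoa2 was at 7017, Apoa1 at 6108, Apoe at 6048, Apoc1 at 3023, Apob at 1738 and Apoa4 at 1637 CPM per kb. Apoa4 had thus passed Apoc3 (835), Apoa5 (639.5) and Mttp (94.9), with Apoc2 last at 5.52 CPM per kb.

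**Figure D1:**
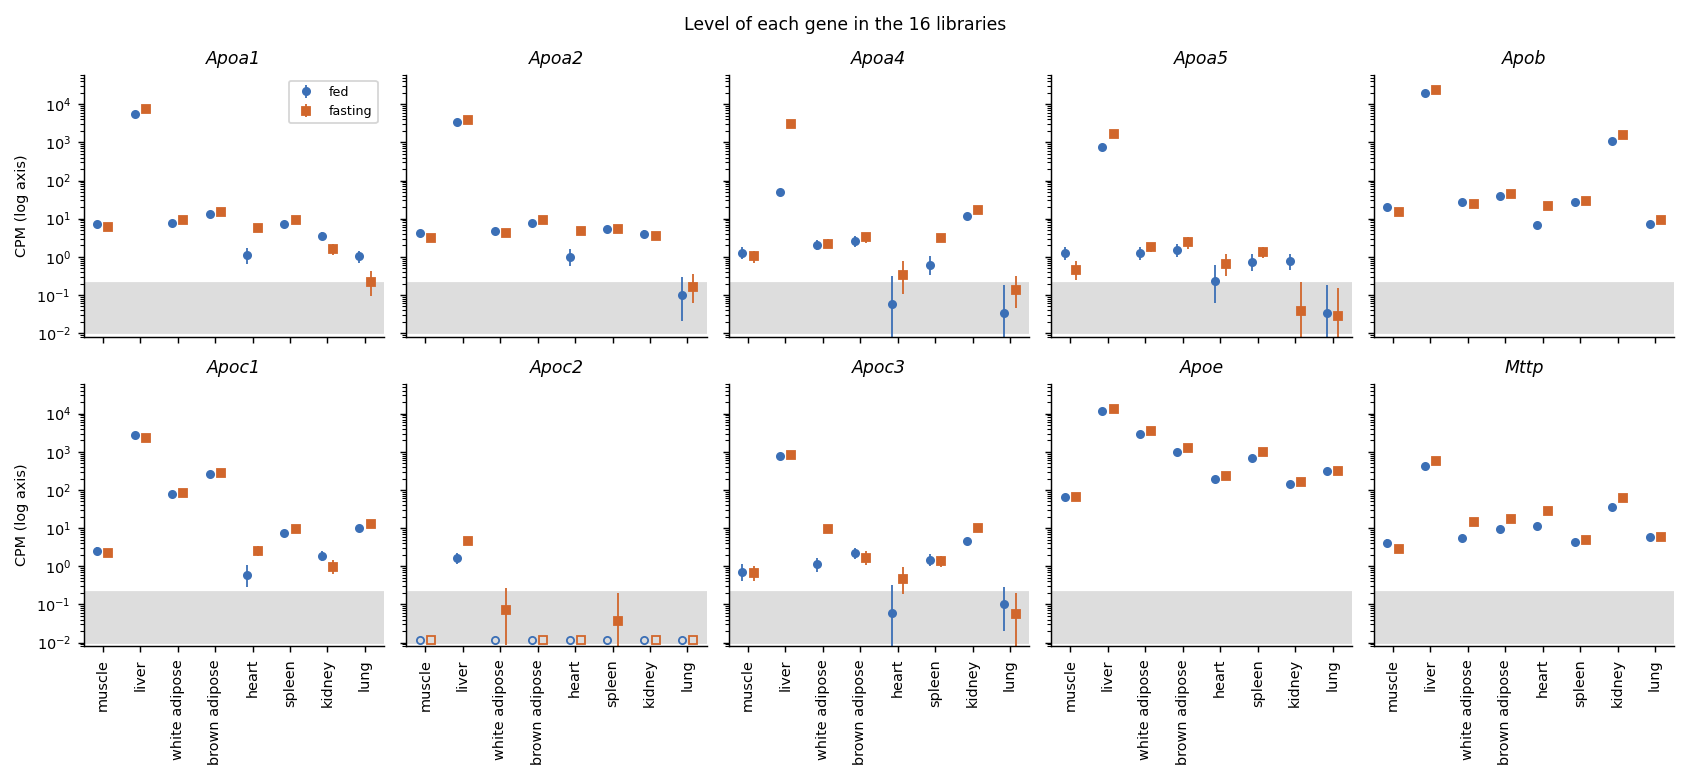
CPM of each gene (log axis) in the 16 libraries, with circles for fed and squares for fasting libraries, bars for exact Poisson 95% intervals (counting error only) and open symbols at the lower edge for libraries with no count. The gray band reaches up to 0.211 CPM, the largest value that 3 counts have in any library; liver is the highest tissue in all 10 panels, and Apoa4 in liver is the widest separated fed and fasting pair.

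Outside liver, the genes differed in where they were next most abundant. Apoe, the ligand of remnant uptake, was second in white adipose tissue at 2912 CPM fed and 3532 CPM fasting, followed by brown adipose tissue (1011 and 1286), spleen (691 and 971), lung (309.8 and 305.6), heart (194 and 237), kidney (140 and 158) and muscle (67.49 and 67.43). No 2 neighbouring tissues overlapped in that order for Apoe. Apoc1, an inhibitor of remnant uptake, was second in brown adipose tissue at 269 CPM fed and 285 CPM fasting, followed by white adipose tissue at 77.3 and 85.1 CPM. Apob was second in kidney at 1106 CPM fed and 1561 CPM fasting, and was between 7.03 and 44.6 CPM in the remaining tissues. Mttp was also second in kidney, at 36.1 and 60.4 CPM, and its levels in heart, brown adipose and white adipose tissue each overlapped those of the next tissue in the order, which was lung after white adipose tissue. Lung (5.74 to 5.92 CPM), spleen (4.28 to 4.99 CPM) and muscle (2.84 to 4.15 CPM) did not overlap each other. Apoa4, an apolipoprotein of chylomicrons and high density lipoprotein, was second in kidney at 11.6 CPM fed and 16.6 CPM fasting. For Apoa1, Apoa2 and Apoa5, brown adipose tissue came second with 13.4 to 14.6, 7.89 to 9.20 and 1.51 to 2.39 CPM, between 423 and 604 times below the mean of the 2 liver libraries. Apoc3, an inhibitor of lipoprotein lipase, lay at 4.63 and 10.2 CPM in kidney, overlapping its range of 1.12 to 9.37 CPM in white adipose tissue. Apoc2, the activator of lipoprotein lipase, had 38 counts in fed and 112 in fasting liver, 2 counts in fasting white adipose tissue, 1 in fasting spleen and 0 in the other 12 libraries. In these 12, the limit of 3 counts corresponded to 0.0832 to 0.211 CPM, and the exact Poisson 95% interval (two-sided) of 0 counts reached up to 0.102 to 0.259 CPM.

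These levels were set beside 12 hepatocyte markers, each expressed as a percentage of its level in the liver library of the same treatment. All 12 markers had counts in each library outside liver except fasting kidney, where Cps1 and Serpina3k were at 0 and the other 10 had counts. Albumin (Alb) stood between 0.00223% (fasting lung) and 0.236% (fasting brown adipose) of its liver level in the 14 libraries outside liver. Apoa1, Apoa2, Apoa5, Apob and Apoc3 were above the highest of the 12 markers in 0 of 14 libraries, Apoc2 in 1, Apoa4 and Apoc1 in 4 each, and Apoe and Mttp in 10 each. The Apoc2 library (fasting spleen) and 1 of the 4 for Apoa4 (fed heart) rested on 1 count each, under the limit of 3 counts. The highest marker was Cyp2e1 in several tissues, which itself reached 2393 and 3784 CPM in fed and fasting white adipose tissue and 1398 and 1465 CPM in kidney, so the median of the markers is given as well. Apoa1 stood at 0.26 to 1.25 times that median in the 14 libraries. In fed spleen, Apoa1 was at 0.134%, Apoa2 at 0.156%, Apob at 0.14% and the median marker at 0.139% of the liver level. By contrast, kidney Apob was at 5.51% and 6.45% of its liver level in fed and fasting conditions against a median marker of 0.138% and 0.0259%. Apoa4 in fed muscle, white adipose and brown adipose tissue was at 2.54%, 4.15% and 4.99% of its fed liver level, and in the fasting libraries of these tissues at 0.0348%, 0.0749% and 0.109% of the far higher fasting liver level. The part that RNA of liver origin has in these low levels was not tested.

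**Figure D2:**
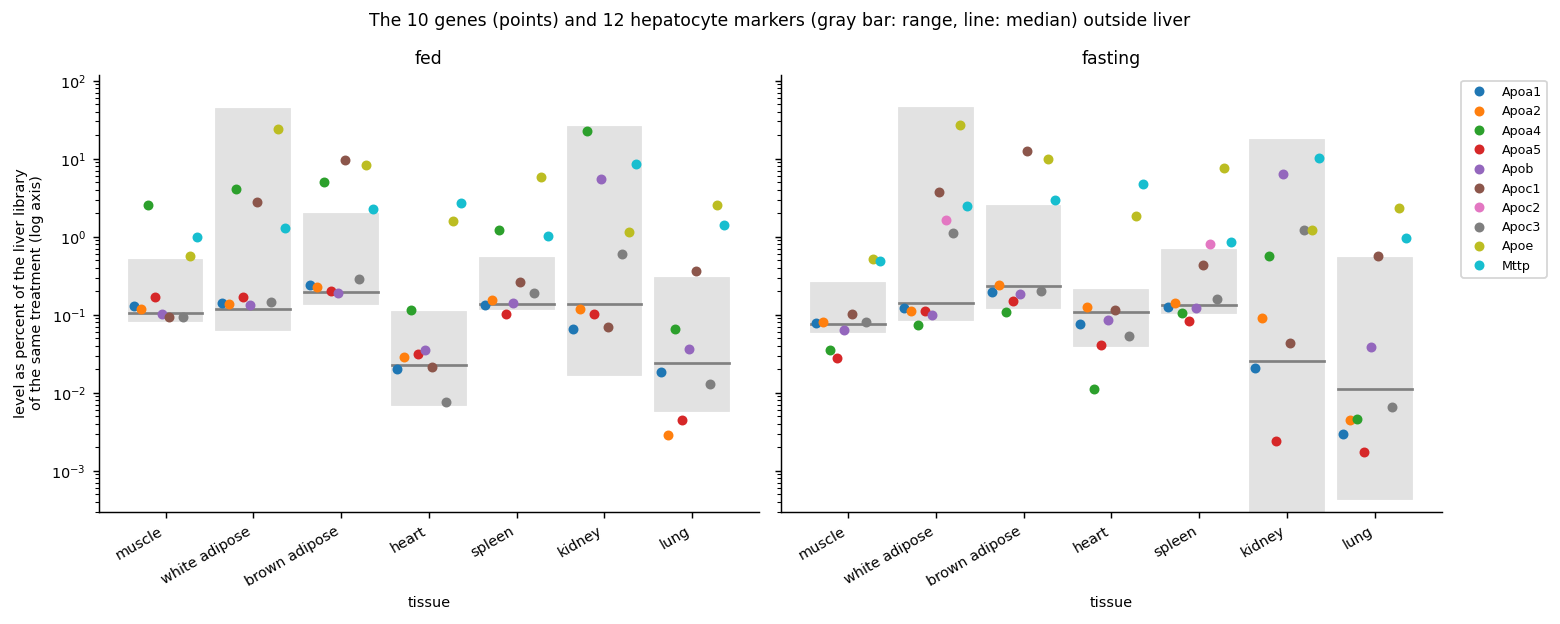
Level of each of the 10 genes (points, log axis) in the 7 tissues other than liver, as a percentage of the liver library of the same treatment, beside the range (gray bar) and median (line) of 12 hepatocyte markers; genes with no count are not drawn. In fed spleen the points of Apoa1, Apoa2 and Apob lie at 0.134% to 0.156%, next to the median marker at 0.139%, while Apoe lies at 5.75%.

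In liver, fasting was accompanied by higher Apoa4, Apoa5 and Apoc2. A gene was called when Fisher's exact test (two-sided) on the counts of the 2 libraries gave an unadjusted p under 0.01 and the log2 fold change was above 0.5 in size, among genes that reached 1 CPM in either library. Of the 10 genes, 3 were called higher and 0 lower in fasting liver, where 7.34% of the 14085 genes tested were called higher and 15.8% lower. Their median log2 fold change was 0.36, and that of all genes tested was -0.13. Apoa4 went from 50.7 CPM (1168 counts) in fed to 2971 CPM (74150 counts) in fasting liver, a 58.6-fold difference (log2 5.87, 95% counting interval 5.79 to 5.96). Its rank among all genes moved from 3111 to 39. Of the 7 enterocyte markers, measured because intestine also makes Apoa4, the defining genes Sis, Alpi and Rbp2 had 0 counts in fed and 5, 15 and 2 counts in fasting liver. The sum of the list, 175 and 233 CPM, came mostly from Anpep (127 and 118.5 CPM) and Fabp2 (47.9 and 113 CPM). Vil1 had 2 and 9 counts and Lct 1 and 5, so that 6 of the 7 markers were higher in fasting liver and Anpep was lower, and their part in the Apoa4 difference was not tested. The 8 pancreatic acinar markers summed to 95.4 CPM in fed and 202 CPM in fasting liver, and their part in the liver differences was not tested. Apoa5, whose product promotes triglyceride clearance, went from 738 to 1613 CPM, a 2.19-fold difference (log2 1.13, interval 1.10 to 1.15). Apoc2 went from 1.65 to 4.49 CPM, a 2.71-fold difference (log2 1.44, interval 0.90 to 2.01; p = 1.62e-08, Fisher's exact test).

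The remaining 7 genes differed by less than the fold threshold in liver. Mttp was at 417 CPM fed and 589 CPM fasting, with a log2 fold change of 0.499 that lay just inside the limit of 0.5. Apoa1, the main protein of high density lipoprotein, was at 5515.5 and 7549 CPM (log2 0.45). Apob was at 20066 and 24222 CPM (log2 0.27), Apoc3 at 765 and 847 CPM (0.15), Apoa2 at 3451 and 3768 CPM (0.13) and Apoe at 12016 and 12931 CPM (0.11). Apoc1 alone was lower in fasting liver, at 2753 CPM fed and 2249 CPM fasting (log2 -0.29). For these 7 genes the counting interval of the log2 fold change did not include 0, since each had at least 9598 counts in both libraries, but that interval holds no variation between mice. With TMM factors, which moved all liver log2 fold changes up by 0.12, Mttp (0.62) and Apoa1 (0.58) were called as well, giving 5 genes higher. With these factors, 10.3% of the genes tested in liver were called higher and 10.9% lower.

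**Figure D3:**
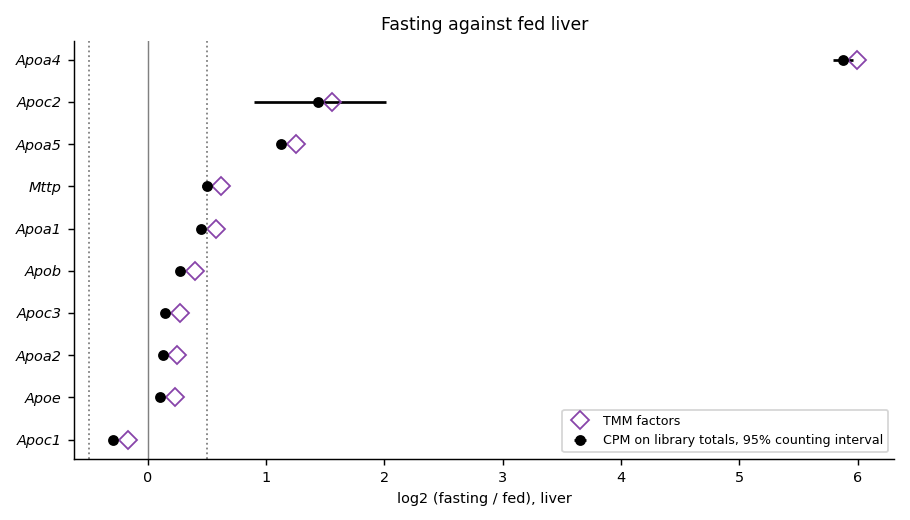
Log2 fold change, fasting over fed, of the 10 genes in liver, with CPM on library totals (filled circles, 95% counting interval) and with TMM factors (open diamonds); dotted lines mark the threshold of 0.5. Apoa4 at 5.87, Apoc2 at 1.44 and Apoa5 at 1.13 stand to the right of it, and Mttp (0.499) and Apoa1 (0.45) cross it only with TMM factors.

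In position, 7 of the 10 genes lay in a pair of clusters on GRCm38. Apoa1, Apoc3, Apoa4 and Apoa5 lay within 43.3 kb of chromosome 9 (chr9:46228580-46271919), with Apoc3 on the minus strand and the others on the plus strand. Along this cluster the liver log2 fold changes were 0.45 (Apoa1), 0.15 (Apoc3), 5.87 (Apoa4) and 1.13 (Apoa5), so that Apoc3, separated from Apoa4 by 5059 bases, did not pass the fold threshold while Apoa4 did. Apoc2, Apoc1 and Apoe lay within 27.6 kb of the minus strand of chromosome 7 (chr7:19671579-19699188), with liver values of 1.44, -0.29 and 0.11. Apoa2 (chr1:171225054-171226379, plus strand), Mttp (chr3:138089854-138144968, minus strand) and Apob (chr12:7977648-8016835, plus strand) lay alone. Some counts are uncertain because other annotated genes share exons. Of the 813 exon bases of Apoc2, 646 (79.5%) are shared with the same-strand gene Gm44805, which had 0 to 1 counts in any library, so the low Apoc2 counts may miss reads that fall on both. On the opposite strand, Apoa4 shares 634 bases with Gm47528 and 632 with Gm10680. The libraries were strand-specific, but the strand setting of the counting is not given in the sources used here. Gm10680 had 0 counts in fed and 42 in fasting liver, against 1168 and 74150 for Apoa4. Apoa5 shares 524 bases with opposite-strand Gm47544, which had 1 count in fed and 7 in fasting liver. Mttp shares 457 of its 6206 exon bases with opposite-strand Trmt10a, which had 50 to 263 counts per library (116 in fed and 108 in fasting liver), and 132 with Gm43691, which had at most 1.

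**Figure D4:**
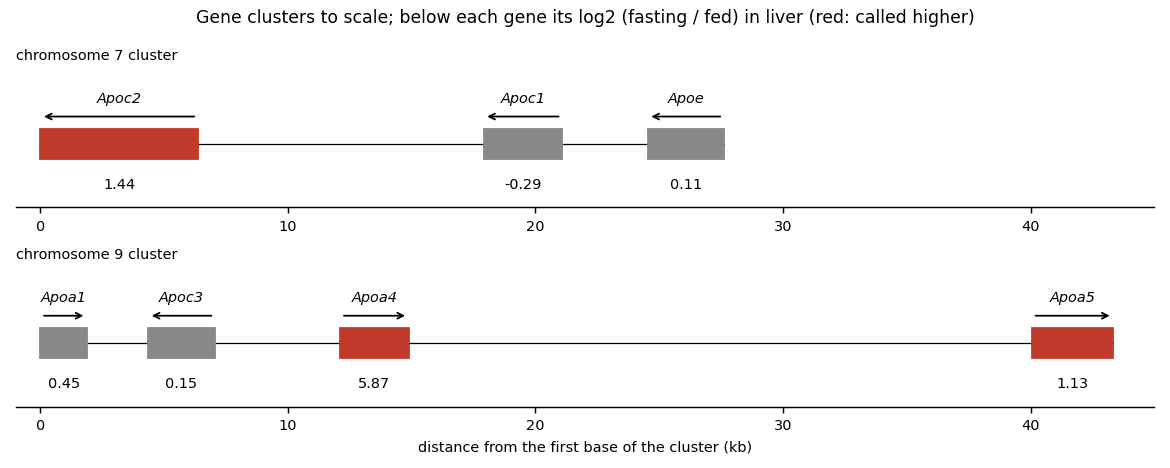
The chromosome 7 and chromosome 9 clusters drawn to scale as distance in kb from the first base of each cluster, with arrows for the strand and the liver log2 fold change under each gene (red for genes called higher in fasting, gray for genes not called). Apoa4 at 5.87 and Apoa5 at 1.13 are called on chromosome 9 and Apoc2 at 1.44 on chromosome 7, next to genes that are not.

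Promoters are shown for Apoa4 and Apoa5, the most abundant genes called in liver, and for Apob, the gene with the most counts. They are the RefSeq bases (GRCm38.p6) before the deposited gene start, within the 250 bases before the RefSeq start, all on the plus strand, with matches to any of 4 motifs in capitals.
Apoa4, chr9:46240594-46240695: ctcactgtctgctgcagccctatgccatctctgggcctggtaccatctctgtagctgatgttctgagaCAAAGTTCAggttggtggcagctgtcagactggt
Apoa5, chr9:46268383-46268632: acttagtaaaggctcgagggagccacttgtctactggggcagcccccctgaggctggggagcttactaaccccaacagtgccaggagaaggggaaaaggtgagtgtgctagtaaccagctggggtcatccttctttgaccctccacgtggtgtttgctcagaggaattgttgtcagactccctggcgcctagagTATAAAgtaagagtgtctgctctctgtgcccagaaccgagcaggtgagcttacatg
Apob, chr12:7977427-7977647: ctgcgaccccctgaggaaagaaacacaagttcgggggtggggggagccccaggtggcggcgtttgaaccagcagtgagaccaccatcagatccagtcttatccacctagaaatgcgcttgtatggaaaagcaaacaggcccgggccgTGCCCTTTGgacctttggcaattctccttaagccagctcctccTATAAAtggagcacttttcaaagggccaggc
The motifs were searched on both strands and their letters were chosen after the promoters were seen. The first, CAAAGNNCA, is a core bound by HNF4 and like receptors, and 5.49% of 32817 RefSeq promoters of 250 bases held it. It was found before Apoa4, starting at position -34 from the deposited gene start, and before Apob, at -74. The second, AGGTCA, is bound by nuclear receptors, was held by 14.0% of promoters and was found before Apoc2. The cAMP response element core, TGACGT, was held by 6.46% of promoters and was found in none of these 7 windows. The letters of the TATA box, TATAAA, were matched at any position in the window, so a match need not be a working TATA box. They were held by 12.4% of promoters and were found before Apoa2 (at -212), Apoa5 (at -56) and Apob (at -31). None of the 4 motifs was found in the windows of Apoa1 and Apoe. Of the 10 genes, 8 had a RefSeq promoter entry. That of Mttp belongs to a start 1550 bases inside the deposited gene and is left out here. Apoc1 and Apoc3 are named only.

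In white adipose tissue, Apoc3 and Mttp were higher in fasting. Of 9 genes tested, 2 were called higher and 0 lower, where 19.8% of the 17494 genes tested were called higher and 9.23% lower. The count of higher calls was thus close to the share over all genes. Apoc3 went from 1.12 CPM (26 counts) to 9.37 CPM (257 counts), an 8.33-fold difference (log2 3.06, interval 2.48 to 3.71; p = 2.36e-41, Fisher's exact test). Mttp went from 5.45 CPM (127 counts) to 14.4 CPM (395 counts), a 2.64-fold difference (log2 1.40, interval 1.11 to 1.70). Of the 12 hepatocyte markers, 8 were higher and 4 lower in fasting white adipose tissue, with Cyp2e1 at 2393 and 3784 CPM, Itih3 at 2.10 and 3.83 CPM, Alb at 72.1 and 67.9 CPM and a sum of 2523 CPM fed and 3915 CPM fasting. Their part in the result was not tested. Apoa1 (7.90 and 9.19 CPM), Apoa2 (4.68 and 4.19) and Apob (27.0 and 24.3) were not called. The 7 enterocyte markers summed to 40.45 CPM in fed and 73.8 CPM in fasting white adipose tissue, with 4 higher and 1 lower in fasting. Anpep was at 37.8 and 41.1 CPM, Vil1 at 1.89 and 29.9 CPM and Rbp2 at 0.172 and 2.26 CPM. The part of the enterocyte list in the result was not tested. The 6 proximal tubule markers summed to 62.4 and 737 CPM in fed and fasting white adipose tissue, of which Lrp2 alone made 35.0 and 710 CPM. The kidney androgen-regulated gene Kap was at 20.4 and 18.2 CPM. Kap was also at 38.7 and 40.6 CPM in fed and fasting heart, 18.7 and 24.7 CPM in spleen and 22.4 and 18.9 CPM in lung. In muscle, liver and brown adipose tissue it had at most 4 counts. The part of RNA from other tissues in these values was not tested. Apoe, at 2912 and 3532 CPM, had a log2 fold change of 0.28.

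In brown adipose tissue, 1 of 9 genes tested was called higher and 0 lower, against 8.68% higher and 12.2% lower of 15374 genes. It was Mttp, at 9.51 CPM (158 counts) fed and 17.4 CPM (248 counts) fasting (log2 0.87, interval 0.58 to 1.17; p = 1.82e-09, Fisher's exact test). Apoc1, at 269 and 285 CPM, and Apoe, at 1011 and 1286 CPM, had log2 fold changes of 0.08 and 0.35. In the same fed and fasting libraries, the 4 fast muscle markers summed to 2001 and 942.5 CPM and the 12 hepatocyte markers to 293 and 426 CPM, and the part of either list in these values was not tested.

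In heart, 5 of 6 genes tested were called higher and 0 lower, against 7.01% higher and 9.65% lower of 15135 genes. Apoa1 went from 1.10 to 5.70 CPM (19 and 87 counts, log2 2.36), Apoa2 from 0.988 to 4.72 CPM (17 and 72 counts, log2 2.25) and Apoc1 from 0.581 to 2.56 CPM (10 and 39 counts, log2 2.12). Apoa2 and Apoc1 reached 1 CPM, and so were tested, only through the fasting library. Apob went from 7.03 to 21.04 CPM (121 and 321 counts, log2 1.58). Mttp went from 11.3 to 27.7 CPM (195 and 423 counts, log2 1.29, interval 1.04 to 1.54). The 12 hepatocyte markers moved with these genes: all 12 were higher in fasting heart, their sum was 30.4 CPM fed and 108 CPM fasting, and Alb was at 14.0 CPM (241 counts) fed and 51.5 CPM (785 counts) fasting. Relative to the median marker, Apoa1 stood at 0.881 and 0.689, Apoa2 at 1.26 and 1.14, Apob at 1.54 and 0.792 and Apoc1 at 0.929 and 1.04 in fed and fasting heart. Mttp was at 120 and 42.9 times the median marker, and Apoe at 71.0 and 16.7 times. The part of these markers in the result was not tested. Apoe (194 and 237 CPM, log2 0.29) was the gene tested but not called.

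In kidney, 3 of 8 genes tested were called higher and 2 lower, against 4.48% higher and 6.23% lower of 16033 genes. Apoc3 went from 4.63 to 10.2 CPM (104 and 263 counts, log2 1.14, interval 0.81 to 1.48) and Mttp from 36.1 to 60.4 CPM (811 and 1556 counts, log2 0.74, interval 0.62 to 0.86). Apoa4 went from 11.6 to 16.6 CPM (261 and 428 counts, log2 0.51), just past the threshold. Apob, at 1106 and 1561 CPM, lay just inside it with a log2 fold change of 0.497. Apoa1 went from 3.61 to 1.59 CPM (81 and 41 counts, log2 -1.18) and Apoc1 from 1.92 to 0.970 CPM (43 and 25 counts, log2 -0.97). Apoc1 reached 1 CPM, and so was tested, only through the fed library. Of the 12 hepatocyte markers, 9 were lower in fasting kidney, with Alb at 32.2 CPM (723 counts) fed and 7.57 CPM (195 counts) fasting, and 3 were higher, which were Fga (32.0 and 104 CPM), Fgg (12.5 and 23.4 CPM) and Cyp2e1 (1398 and 1465 CPM). The sum of the list was 1499 CPM fed and 1604 CPM fasting, and its part in the kidney differences was not tested. With TMM factors Apob was called (log2 0.55) and Apoc1 was not (-0.93), for 4 genes higher and 1 lower. With these factors, 5.24% of the 16033 genes tested were called higher and 4.98% lower.

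In spleen, 1 of 9 genes tested was called higher and 0 lower, against 3.62% higher and 2.33% lower of 17358 genes. Apoa4 went from 0.618 CPM (14 counts) to 3.16 CPM (88 counts), a 5.05-fold difference (log2 2.34, interval 1.53 to 3.28; p = 2.17e-11, Fisher's exact test). Apoa4 reached 1 CPM, and so was tested, only through the fasting library. As a share of the liver level Apoa4 was at 1.22% in fed and 0.106% in fasting spleen, with Alb at 0.142% and 0.126%. The 8 pancreatic acinar markers summed to 431 CPM in fed and 11.5 CPM in fasting spleen, and their part in the Apoa4 difference was not tested. Apoe was at 691 and 971 CPM, and its log2 fold change of 0.49 lay just inside the threshold. With TMM factors it was 0.52 and Apoe was called. The 9 macrophage markers summed to 1415 CPM in fed and 1827 CPM in fasting spleen, and their part in the Apoe difference was not tested.

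In muscle, 0 of 8 genes tested were called higher and 2 lower, against 7.8% higher and 16.4% lower of 13701 genes. Apoa5 went from 1.25 CPM (30 counts) to 0.453 CPM (14 counts), with a log2 fold change of -1.44 (interval -2.49 to -0.50; p = 0.00126, Fisher's exact test). Apoa5 reached 1 CPM, and so was tested, only through the fed library. Mttp went from 4.15 CPM (100 counts) to 2.84 CPM (88 counts), with a log2 fold change of -0.54. The Mttp call was lost with TMM factors (-0.41). All 12 hepatocyte markers were lower in fasting muscle, with Alb at 60.3 and 44.2 CPM and a sum of 134 and 101 CPM, and their part in the result was not tested. In lung, 0 of 5 genes tested were called higher and 1 lower, against 4.23% higher and 10.1% lower of 17575 genes. Apoa1 went from 1.03 CPM (31 counts) to 0.222 CPM (8 counts), with a log2 fold change of -2.17 (interval -3.55 to -1.06). Lung Apoa1 likewise reached 1 CPM only in the fed library. Of the 12 hepatocyte markers, 10 were lower in fasting lung, among them Alb at 7.62 CPM (229 counts) fed and 1.16 CPM (42 counts) fasting. The other 2 were higher, Cyp2e1 at 16.4 and 45.6 CPM and Tat at 0.665 and 3.66 CPM, and the sum of the list was 35.6 CPM fed and 56.2 CPM fasting. The part of RNA of liver origin in the lung difference was not tested. Apoe in lung was at 309.8 and 305.6 CPM and Mttp at 5.92 and 5.74 CPM.

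**Figure D5:**
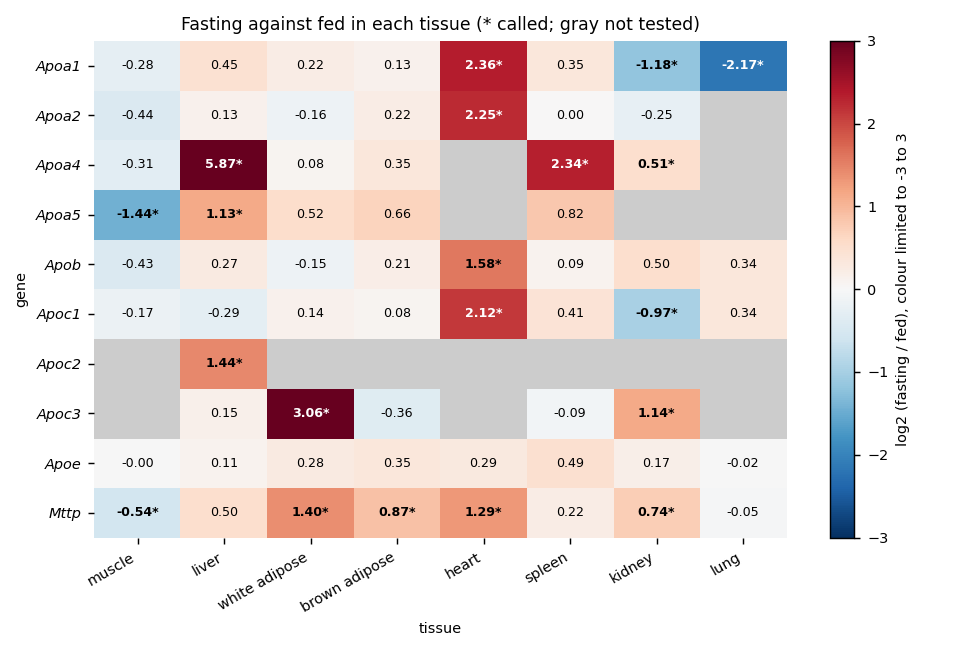
Log2 fold change, fasting over fed, of each gene (rows) in each tissue (columns), as numbers and as colour limited to -3 to 3, with an asterisk for called genes and gray for genes below 1 CPM in both libraries. The heart column holds 5 calls, all higher, and the Mttp row holds calls in 5 tissues, 4 higher and 1 (muscle) lower.

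Across the 8 tissues together, none of the 10 genes passed. This fit of all 16 libraries in edgeR (quasi-likelihood test, tissue and treatment as terms, 7 residual degrees of freedom) treats tissues from the same 2 pools of mice as separate observations, and it called 1.03% of 23580 genes higher and 0.84% lower at an adjusted p under 0.05. The count was 0 of 10, with 4 genes at an unadjusted p under 0.05, as were 4396 of all 23580 genes tested. DESeq2's Wald test called 2 of the 10 higher and 0 lower, where it called 5.2% of 16234 genes higher and 6.09% lower. Mttp came closest in edgeR, with a log2 fold change of 0.63 (SE 0.18, adjusted p = 0.0963), higher in 6 of 8 tissues. Apoe had a log2 fold change of 0.25 (SE 0.10, adjusted p = 0.202), also higher in 6 of 8 tissues. The tallies of tissues in this paragraph use CPM on library totals. With TMM factors, which the fit uses, Apoe in muscle and lung and Mttp in lung were also above 0. DESeq2 called Mttp (adjusted p = 0.0257) and Apoe (adjusted p = 0.00252), and over the 14 alternatives the adjusted p of both reached up to 1. Apoa4, higher in 7 of 8 tissues, had a log2 fold change of 1.44 with an SE of 0.74 (adjusted p = 0.327), which was 0.69 without liver. Apoc2 had 1.62 (SE 0.56, adjusted p = 0.205) from the 3 tissues with a count, and Apoc3 0.77 (SE 0.35, adjusted p = 0.266), which was 0.39 without white adipose tissue. The other 5 genes had log2 fold changes of 0.12 to 0.37 with adjusted p of 0.41 to 0.891.

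Other genes of lipoprotein metabolism were taken from 6 lists. In liver, 58 of their genes were tested, of which 7 were called higher and 14 lower, where 7.34% of all genes tested in liver were called higher and 15.8% lower. Of 7 other apolipoprotein genes tested, 1 was called higher (list median 0.12), which was Apoc4, at 264 and 433 CPM (log2 0.71, named after its value was seen). The 2 most abundant, Apoh and Clu, were at 1453 and 1415 CPM and at 1017 and 1009 CPM. Of 12 genes of lipoprotein assembly and secretion, 0 were called higher and 1 lower (median -0.01). P4hb, the small subunit of the Mttp complex, was at 1257 and 1294 CPM and Mia2, a cargo export factor, at 461 and 491 CPM. The gene called lower was Sort1, a sorting receptor for apolipoprotein B, at 73.1 and 25.6 CPM (log2 -1.51).

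Of 10 lipases and plasma remodelling genes, 2 were called higher and 4 lower in liver (median -0.34). Angptl4, an inhibitor of lipoprotein lipase, went from 66.1 to 271 CPM (log2 2.03) and Lipg, endothelial lipase, from 12.9 to 33.4 CPM (log2 1.37). Angptl8, also a regulator of lipoprotein lipase, went from 58.0 to 6.29 CPM (log2 -3.20). Lipc and Pltp were also called lower, at log2 -0.59 and -0.67, and Lcat was at 294 and 368 CPM. Of 9 receptor and uptake genes tested, 0 were called higher and 4 lower (median -0.43). Among them, Lrp1, a remnant receptor, went from 2321 to 1636 CPM (log2 -0.50) and Sorl1 from 5.99 to 4.17 CPM (log2 -0.52). None of the 5 lipid efflux genes was called (median -0.22). Abca1 was at 620 and 489 CPM and Abcg8 at 105 and 96.8 CPM.

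Of 15 transcription factors on the list, 4 were called higher and 5 lower in liver (median 0.04). Hnf4a, a hepatocyte regulator of apolipoprotein genes, went from 620 to 964 CPM (log2 0.64). Creb3l3, known to act on Apoa4 and Apoc2 in fasting, went from 248 to 499.7 CPM (log2 1.01), Ppara from 145 to 275 CPM (log2 0.92) and Ppargc1a from 14.9 to 34.3 CPM (log2 1.21). Srebf1, the lipogenic regulator, went from 342 to 33.5 CPM (log2 -3.35), Mlxipl from 318 to 124 CPM (log2 -1.35) and Foxa2 from 43.9 to 18.9 CPM (log2 -1.21). Nr0b2 (log2 -0.78) and Srebf2 (log2 -0.75) were also called lower. Across tissues, 61 genes of the lists were tested in edgeR, of which 3 were higher and 3 lower at an adjusted p under 0.05, where 1.03% of all genes tested were higher and 0.84% lower. Those higher were Angptl4 (log2 2.25, SE 0.40, adjusted p = 0.024), Apod (1.26, SE 0.21, adjusted p = 0.019) and Gpihbp1 (0.54, SE 0.09, adjusted p = 0.02). Srebf2 was among those lower (-0.54, SE 0.08, adjusted p = 0.011).

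The pattern of each gene over the 16 libraries was compared with that of other genes by the Pearson correlation of log2(CPM + 1). The genes used were the 14903 with a symbol and at least 10 CPM in 1 library, and the members among them were left out as matches. These values describe libraries that share tissues and carry no test. Apoa5 was most like Cyp3a25 (r = 0.998) and Cyp8b1 (0.997), Apob most like Serpina1d (0.997) and Nat8f2 (0.993), Apoa2 most like Fgb (0.995) and Serpina1e (0.994) and Apoa1 most like Cyp3a11 (0.995) and Mug1 (0.995). Apoc3 was most like Cfi (0.984) and Etnk2 (0.983), Apoc1 most like Rbp4 (0.964) and H2-Q10 (0.957) and Apoa4 most like Gm45044 (0.965) and Gm9826 (0.949). Mttp was most like Pbld2 (0.962) and Sco2 (0.945). Apoe, which was abundant in the most tissues, had the lowest best match, with Hsd3b7 (0.948) and Trf (0.937). Apoc2 stayed under 10 CPM and was not compared.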

How the data were processed

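Tissue of 3 mice per group was pooled, and each of the 16 strand-specific libraries was sequenced as paired-end reads of 100 bp. Per the labels and the methods of the study, the authors used fastp 0.23.2 for trimming, FastQC 0.11.8 for quality control, HISAT2 2.2.1.0 for alignment to the mouse build GRCm38, and featureCounts of Subread 2.0 for gene counts on GENCODE release 24. The authors deposited these raw counts without normalization, with each gene's length as an other value. Whether reads or pairs were counted is not given in the sources used here. Symbols came from GENCODE release 21 by identifier.

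Counts were divided by library totals to give CPM, and fold changes were (CPM fasting + 0.01)/(CPM fed + 0.01), after the study's methods. Fisher's exact test (two-sided) was used within tissues, among genes with at least 1 CPM in 1 library, at p under 0.01 and a log2 fold change above 0.5 in size. edgeR 4.0.16 (R 4.3.3) with TMM, filterByExpr and the quasi-likelihood test was used across tissues, at a Benjamini-Hochberg adjusted p under 0.05. Alternatives used DESeq2 1.42.0 and other scalings, pseudocounts and filters. Intervals (exact 95%) and floors (3 counts) cover counting error only. The remaining analysis was run in Python 3.11.15 (pandas 2.3.3, numpy 2.4.6, matplotlib 3.10.9, scipy 1.17.1). Each testing step was tested on simulated data.

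The 10 genes, the pathway lists and the marker lists were chosen with earlier results of these data known. All 10 genes were named throughout. Of each pathway list, the 2 genes highest in fed liver and those called in liver with a log2 fold change above 1 in size were named, and other called list genes were named after their values were seen. Some genes of these lists are not reported here. For likeness, the 2 genes with the highest correlation among those with at least 10 CPM in 1 library were named.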

Additional observations from a re-analysis of the deposited data

Results flagged for a closer look

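Of the 10 genes, 4 were called higher in fasting in at least 1 tissue and lower in another. Of the 9 of them tested in at least 2 tissues this was 44.4%, and of all 18789 genes tested in at least 2 tissues 10.4% were called both ways. These shares were not matched for the number of tissues in which a gene was tested. A gene tested in more tissues has more room to be called both ways. Both shares rest on CPM from library totals. The lower calls of Apoc1 in kidney, Apoa5 in muscle and Apoa1 in lung were of genes that reached 1 CPM only in the fed library. With TMM factors the lower calls of Mttp in muscle (-0.41) and Apoc1 in kidney (-0.93) were lost, while Apoa1 and Apoa5 were still called both ways. With 1 library per tissue and treatment the difference between those tissues was not tested. The log2 fold change of Apoa1 was 2.36 in heart, -1.18 in kidney and -2.17 in lung. That of Apoc1 was 2.12 in heart and -0.97 in kidney. Of the 12 hepatocyte markers, 12 were higher in fasting heart, 3 in kidney and 2 in lung, with Alb lower in kidney and lung, while the sum of the list was higher in fasting in all 3 tissues. In muscle all 12 were lower. The log2 fold change of Apoa5 was 1.13 in liver and -1.44 in muscle, where it rests on 30 and 14 counts. The log2 fold change of Mttp was 1.40 in white adipose tissue, 1.29 in heart, 0.87 in brown adipose tissue and 0.74 in kidney, and -0.54 in muscle.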

How the results depend on the processing

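The fit across tissues compares fed and fasting libraries paired by tissue. Within a tissue there is 1 library per treatment, and 10 other settings were run there, of which edgeR's exact test assumed a variation between animals (CV) of 0.2 or 0.4. In muscle, 2 genes were called, against 1 with TMM factors, DESeq2 size factors, totals without the 10 highest genes, a pseudocount of 1 CPM, an adjusted p or a log2 fold change above 1, and 0 at a CV of 0.2 or 0.4. In liver, 3 became 5 with TMM or DESeq2 factors and 1 (Apoa4) at a CV of 0.4. Liver Mttp (0.52) was also called with totals without the members or without the 10 highest genes, for 4 genes. In white adipose tissue, 2 became 1 (Apoc3) at 0.4. In brown adipose tissue, 1 became 0 at a log2 fold change above 1 and at 0.2 and 0.4. In heart, 5 became 0 at 0.4. In spleen, 1 became 2 with TMM or DESeq2 factors and 0 at 0.4. In kidney, 5 became 2 at a log2 fold change above 1 and 0 at 0.2 and 0.4. There, Apoc1 was not called with an adjusted p and Apoa4 (0.48) not with a pseudocount of 1 CPM, for 4 genes each, while Apob (0.51) was called with totals without the 10 highest genes and Apoa5 was called lower with no filter, for 6 each. In lung, 1 became 0 with DESeq2 factors, which put Apoa1 under 1 CPM, and at 0.4. Thus of the calls of the report, Apoa4 in liver and Apoc3 in white adipose tissue were made under each alternative run.

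TMM factors moved the log2 fold changes of all genes by 0.14 in muscle and 0.12 in liver, and DESeq2 factors by 0.17, 0.12 and, in lung, 0.10. The signs of small differences turned with the scaling. With TMM and DESeq2 factors, Apoe in muscle was 0.13 and 0.17, Apoe in lung 0.063 and 0.0854 and Mttp in lung 0.0372 and 0.0595, and Apoc1 in muscle was 0.0032 with DESeq2 factors. With TMM factors, 11.8% of genes in muscle were called higher and 10.7% lower, in liver 10.3% and 10.9%, and in lung 5.635% and 7.845%. In spleen these shares were 4.02% and 2.06%, and in kidney 5.24% and 4.98%.

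Across tissues, 0 genes were called under each alternative but DESeq2's Wald test, with 2, and 0 to 0 when each tissue was left out in turn. Over all genes, 1.87% were called in the report's fit, 11.3% with DESeq2's test, 0.00578% (1 gene) without the tissue term, 1.83% to 4.39% with another filter, 2.63% on total counts alone, 0.604% without liver and kidney and 0.346% to 2.11% with each tissue left out. The filter by treatment groups alone was chosen after seeing the data and also gave 0. With each tissue left out, Apoa1 ranged from -0.12 (without heart) to 0.28, Apoa2 from -0.0116 (without heart) to 0.29, Apoa5 from -0.045 (without liver) to 0.61, Apoa4 from 0.69 (without liver) to 1.85, Apob from 0.16 (without heart) to 0.41, Apoc1 from 0.026 (without heart) to 0.27 and Apoc3 from 0.39 (without white adipose tissue) to 0.92. Without the tissue term Apoc1 was -0.14, Apoa4 5.70 and Apoc3 0.28. The cause of these changes was not tested.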
